A study of Rattus norvegicus with 16 samples.

Results

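Diet was compared across the whole set of 16 brain RNA libraries from male Wistar rats, with rearing kept in the model. The 8 libraries of rats on a high fat diet were set against the 8 libraries of rats on standard chow, and all 16 of 16 libraries entered. The measure is the mean of 2 differences, HFD minus control among undisturbed rats and ELS-HFD minus ELS among separated rats. The HFD group had been left with the dam and ate the high fat diet, and its control group had been left with the dam and ate chow. The ELS-HFD group had been taken from the dam for 3 h a day during 16 days, starting on postnatal day 1, and then ate the high fat diet, while the ELS group had the same separation and ate chow. ELS stands for early-life stress, and each group held 4 libraries. All groups were males that went through an elevated plus maze at about day 57 and were assigned to a diet on day 60. The tissue label reads brain, whole tissue lysate, and the design text names the amygdala. Neither the composition of the diet nor how long it lasted is given in the sources used here, and no litter is recorded. Whether each numbered sample is its own animal is not said in the labels. P-values therefore reflect how far these samples spread, and that spread may be partly technical.

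The amygdala is a group of forebrain nuclei that ties sensory and bodily cues to fear, reward and feeding. It receives signals of energy state through receptors for neuropeptide Y, calcitonin-type peptides, insulin and leptin. Long feeding on fat is known in rodents to alter hypothalamic and limbic circuits, lipid handling and inflammatory tone. In a lysate of whole tissue, neurons, glia, vessels and fragments of neighbouring structures are read together. Fewer cells of a type and less RNA per cell cannot be told apart in such data.

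Levels are given as CPM, counts scaled to a common library total, and diet differences as log2 folds of high fat diet over chow ± SE. A gene was called when its Benjamini-Hochberg adjusted p in the quasi-likelihood F test of edgeR was under 0.05. Of 14208 genes tested, 1 was called, which is 0.00704%, and it was lower on the high fat diet. An unadjusted p under 0.05 was reached by 787 genes (5.54%), 280 with positive log2 folds (1.97%) and 507 with negative ones (3.57%). DESeq2 called 2 genes (0.0141%), Samd4a and Lonrf1, and had 810 at an unadjusted p under 0.05 (5.7%). Over all genes, 6653 log2 folds were positive and 7555 negative, with a median of -0.01.

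Brain markers were present at high levels, with means over all libraries of 1669 CPM for the excitatory neuron gene Slc17a7, 496 CPM for the inhibitory neuron gene Gad2 and 1592 CPM for the astrocyte gene S100b. Of 17 central amygdala markers 16 were tested, and Penk, the enkephalin gene of that nucleus and of the striatum, averaged 435 CPM. Libraries also differed in the levels of tissue markers, and the part of this in the lower genes below was not tested. Total counts ran from 11438086 to 23629824 per library. Transcripts of the choroid plexus, the epithelium that secretes cerebrospinal fluid, were lowest in ELS-HFD 1, ELS 2 and ELS 1. Ttr, its most abundant marker, ranged from 0.275 to 10285 CPM in the high-fat libraries and from 6.86 to 12225 CPM in the chow libraries. Myelin transcripts were highest in ELS 3 and ELS 4. The library codes end in N or B, with a meaning that is not given, and the 8 high-fat libraries hold 3 N and 5 B against 6 N and 2 B in the 8 chow libraries. With this letter as a covariate, 476 of 14208 genes had an unadjusted p under 0.05 in edgeR.

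Samd4a (ENSRNOG00000010489) was the gene that fell on the high fat diet. It encodes mammalian Smaug, an RNA-binding protein that recognises stem-loops in messenger RNAs and represses their translation or promotes their decay. A point mutation of mouse Samd4 is known to make animals lean. Its level was 10.3, 9.84, 10.1 and 11.0 CPM in the HFD libraries, against 14.8, 15.4, 16.9 and 14.5 CPM in the control libraries. It was 9.96, 9.25, 11.8 and 9.28 CPM in the ELS-HFD libraries, against 16.5, 16.1, 18.4 and 15.5 CPM in the ELS libraries. The highest high-fat library, at 11.8 CPM, lay below the lowest chow library, at 14.5 CPM, so the groups did not overlap in either rearing. The diet difference was -0.65 ± 0.07 on the log2 scale (95% interval -0.79 to -0.51), or 36.4% lower, with an edgeR adjusted p = 0.000647 and a DESeq2 adjusted p = 1.75e-13. The difference was -0.58 in undisturbed rats and -0.72 in separated rats, and the difference between these rearings was -0.14 (edgeR adjusted p = 1.00). With 1 library left out at a time, the log2 fold of Samd4a stayed between -0.68 and -0.62 and its edgeR adjusted p between 0.000205 and 0.0037.

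**Figure D1:**
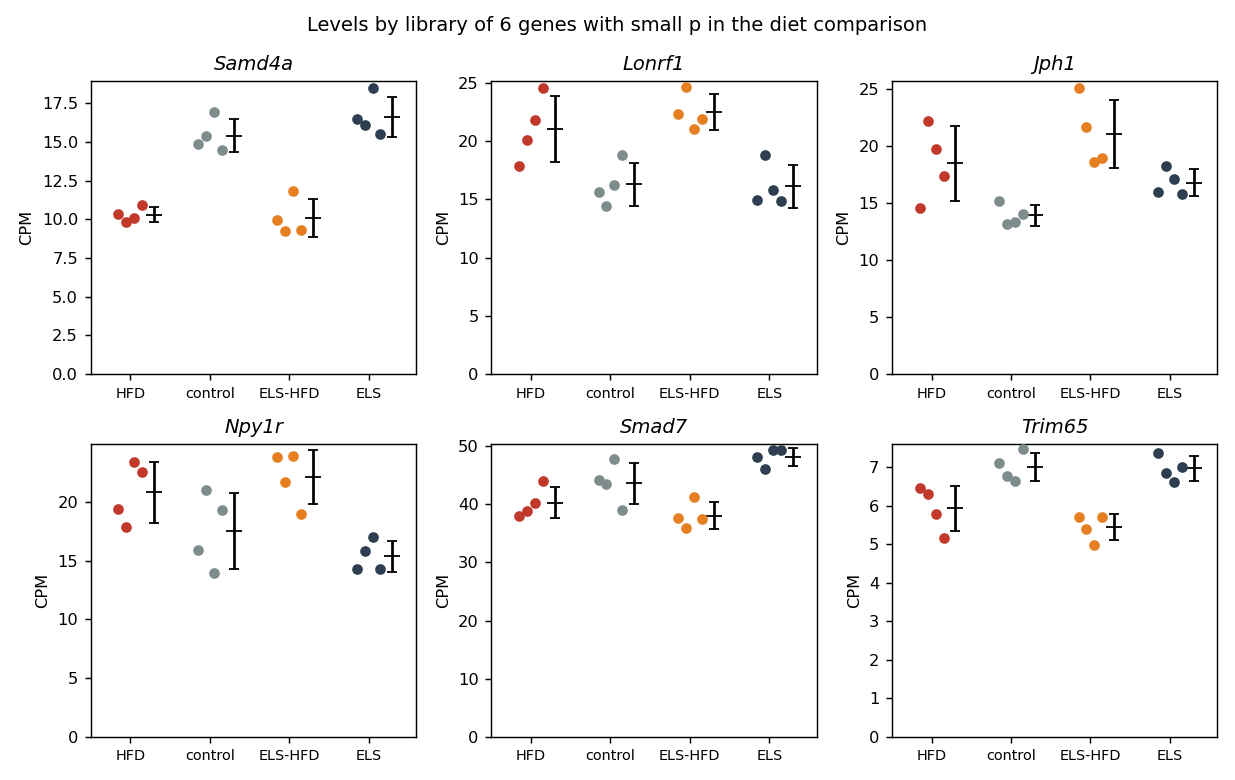
CPM in each library (points) with the group mean ± SD (black bars, n = 4) for 6 genes with small p, on axes that start at 0. For Samd4a the 8 high-fat libraries lie between 9.25 and 11.8 CPM, all below the 8 chow libraries at 14.5 to 18.4 CPM, while for Lonrf1, Jph1, Npy1r and Smad7 the high-fat and chow libraries overlap.

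The sequence around the annotated start of Samd4a is shown because it is the gene called. The RefSeq window on GRCr8, which is not the build named for the counts, is chr15:22727019-22727318 on the plus strand and covers 250 bases before the start and 50 after it. Capitals mark GTAAACA, sought as the core motif of the FoxO factors, which begins at base 37 of the window.
Samd4a: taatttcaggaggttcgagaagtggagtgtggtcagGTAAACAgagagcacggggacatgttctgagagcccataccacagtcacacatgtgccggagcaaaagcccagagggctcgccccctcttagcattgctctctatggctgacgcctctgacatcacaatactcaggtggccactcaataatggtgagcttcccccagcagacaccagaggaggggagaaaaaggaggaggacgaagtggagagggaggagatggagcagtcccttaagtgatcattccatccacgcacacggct
The same letters stand on either strand in 1265 of 33469 rat promoter windows of this length (3.78%). No other motif sought, also on both strands, is in this window. These were the cyclic AMP element TGACGTCA (1.83% of windows), the E-box CACGTG (6.42%) and the nuclear receptor half-site AGGTCA (16.2%). The others were the TATA (14.2%), CCAAT (37.5%) and GC boxes (33.1%) and the sterol (0.269%) and glucocorticoid (0.0149%) response elements. A match is a description of the letters, and which start the rats used was not measured, since reads were primed from the poly-A tail.

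Samd4a stood alone among the genes it is grouped with. Of 41 tested genes for messenger RNA decay and translational repression, 1 was called and the median log2 fold was 0.00, against -0.01 over all genes tested. The helicase gene Ddx6, a partner of translational repressors, had 29.6 ± 3.83 CPM in HFD and 32.5 ± 2.01 CPM in control libraries, and 28.7 ± 2.03 CPM in ELS-HFD and 32.0 ± 1.73 CPM in ELS libraries (SD, n = 4 each). The log2 fold of Ddx6 was -0.15 ± 0.06 and it did not pass (edgeR adjusted p = 0.851). The silencing scaffold Tnrc6a was at -0.15 ± 0.07. In total, 18 of the 41 were positive and 23 negative.

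On the positive side no gene passed in edgeR, and the 12 with the smallest p had log2 folds of 0.16 to 0.60. Lonrf1, a RING finger protein with a domain of the N-terminal type of Lon proteases, came first. It had 17.8, 20.1, 21.8 and 24.6 CPM in HFD, against 15.7, 14.5, 16.3 and 18.8 CPM in control libraries. In separated rats it had 22.3, 24.6, 21.1 and 21.9 CPM in ELS-HFD, against 15.0, 18.8, 15.8 and 14.8 CPM in ELS libraries. All 4 ELS-HFD libraries lay above all 4 ELS libraries, and HFD and control overlapped through HFD 1 and control 4. The log2 fold of Lonrf1 was 0.43 ± 0.08, or 34.6% higher, with an adjusted p = 0.387 in edgeR and 0.00125 in DESeq2.

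Jph1 and Npy1r followed. Jph1 encodes junctophilin, which ties the plasma membrane to the calcium stores of the endoplasmic reticulum. It had 14.6, 22.2, 19.7 and 17.3 CPM in HFD, against 15.1, 13.1, 13.3 and 14.1 CPM in control libraries, and 25.1, 21.6, 18.6 and 18.9 CPM in ELS-HFD, against 16.0, 18.3, 17.1 and 15.8 CPM in ELS libraries. Only HFD 1 overlapped with the controls, and the separated groups did not overlap. The log2 fold of Jph1 was 0.37 ± 0.09 (edgeR adjusted p = 0.824), close in both rearings at 0.42 and 0.33. Npy1r encodes the Y1 receptor for neuropeptide Y, a peptide known to raise food intake and to lower anxiety in rodents. It averaged 20.8 ± 2.60 CPM in HFD and 17.6 ± 3.22 CPM in control libraries, and 22.1 ± 2.32 CPM in ELS-HFD and 15.4 ± 1.33 CPM in ELS libraries (SD, n = 4 each). The undisturbed groups overlapped and the separated groups did not. Its log2 fold was 0.38 ± 0.09, with the same edgeR adjusted p.

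Of the remaining genes of this group 8 are described, and all had an edgeR adjusted p = 0.824. Kcng3, a modifying subunit of voltage-gated potassium channels, had the largest fold of them at 0.60 ± 0.17, on a low level of 1.55 to 3.85 CPM in the high-fat libraries and 1.05 to 2.56 CPM in the chow libraries. Ptger3, the EP3 receptor for prostaglandin E2, was at 0.56 ± 0.15, with medians of 4.54 and 3.29 CPM on high fat diet and chow. Prss55, a serine protease gene, was at 0.51 ± 0.14. The ciliary dynein regulator Drc3 was at 0.27 ± 0.07, Tmem200a at 0.26 ± 0.07, and the vesicle GTPase gene Rab3d and the BTB domain gene Btbd9 at 0.23 ± 0.07 and 0.23 ± 0.06. Osbpl1a, an oxysterol-binding-type protein of late endosomes, had the smallest fold at 0.16 ± 0.04, nearly equal in the 2 rearings (0.16 in each).

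On the negative side Samd4a was followed by 11 genes that did not pass, each with an edgeR adjusted p = 0.824. Smad7, an inhibitor of transforming growth factor beta signalling, had 38.0, 38.8, 40.2 and 44.0 CPM in HFD, against 44.1, 43.5, 47.8 and 39.0 CPM in control libraries. It had 37.7, 35.9, 41.2 and 37.4 CPM in ELS-HFD, against 48.1, 46.0, 49.3 and 49.2 CPM in ELS libraries. The undisturbed groups overlapped, with HFD 3 and HFD 4 above control 4, and the separated groups were apart. The log2 fold of Smad7 was -0.23 ± 0.05, with -0.11 in undisturbed and -0.34 in separated rats. Trim65 and Trim16 encode proteins of the tripartite motif family, many of which are ubiquitin ligases. Trim65 ranged from 4.97 to 6.47 CPM (median 5.71) in the high-fat libraries and from 6.62 to 7.48 CPM (median 6.94) in the chow libraries, with no overlap, and a log2 fold of -0.30 ± 0.07. Trim16 was at -0.50 ± 0.11.

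Bach1, which represses haem oxygenase and other antioxidant genes, was at -0.32 ± 0.08, from 5.00 to 6.87 CPM in high-fat and 6.48 to 7.84 CPM in chow libraries. Hmox1, haem oxygenase itself and not one of the 12, was at -0.35 ± 0.11. The helix-loop-helix factor Tfap4 was at -0.40 ± 0.10, with 4.83 ± 0.703 CPM in HFD and 6.75 ± 0.845 CPM in control libraries. Gamt, the enzyme of the last step of creatine synthesis, ranged from 25.8 to 31.3 CPM in the high-fat libraries and from 31.5 to 41.6 CPM in the chow libraries without overlap, at -0.24 ± 0.06. St6galnac3, a sialyltransferase of gangliosides, ranged from 16.2 to 18.7 CPM and from 18.9 to 27.4 CPM in those groups, also without overlap, at -0.34 ± 0.08.

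Several of the 12 are genes of myelinating or other glia, and their values stand beside the myelin levels given further on. Sox10, which drives oligodendrocyte development, had 52.3, 55.0, 59.3 and 56.2 CPM in HFD, against 61.8, 63.9, 67.3 and 75.4 CPM in control libraries. It had 47.4, 53.5, 66.6 and 52.6 CPM in ELS-HFD, against 62.2, 68.4, 101 and 104 CPM in ELS libraries. The undisturbed groups did not overlap, and among the separated rats ELS-HFD 3 lay above ELS 1. The log2 fold of Sox10 was -0.44 ± 0.10 with all libraries and -0.26 without ELS 3 and ELS 4. The glycine transporter gene Slc6a9 was at -0.37 ± 0.09 (-0.25 without these 2), the cadherin gene Cdh19 at -0.62 ± 0.16 (-0.43), St6galnac3 at -0.34 (-0.23) and Gamt at -0.24 (-0.17). For Samd4a, Trim65, Bach1 and Tfap4 the values without ELS 3 and ELS 4 were -0.64, -0.31, -0.35 and -0.43.

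**Figure D2:**
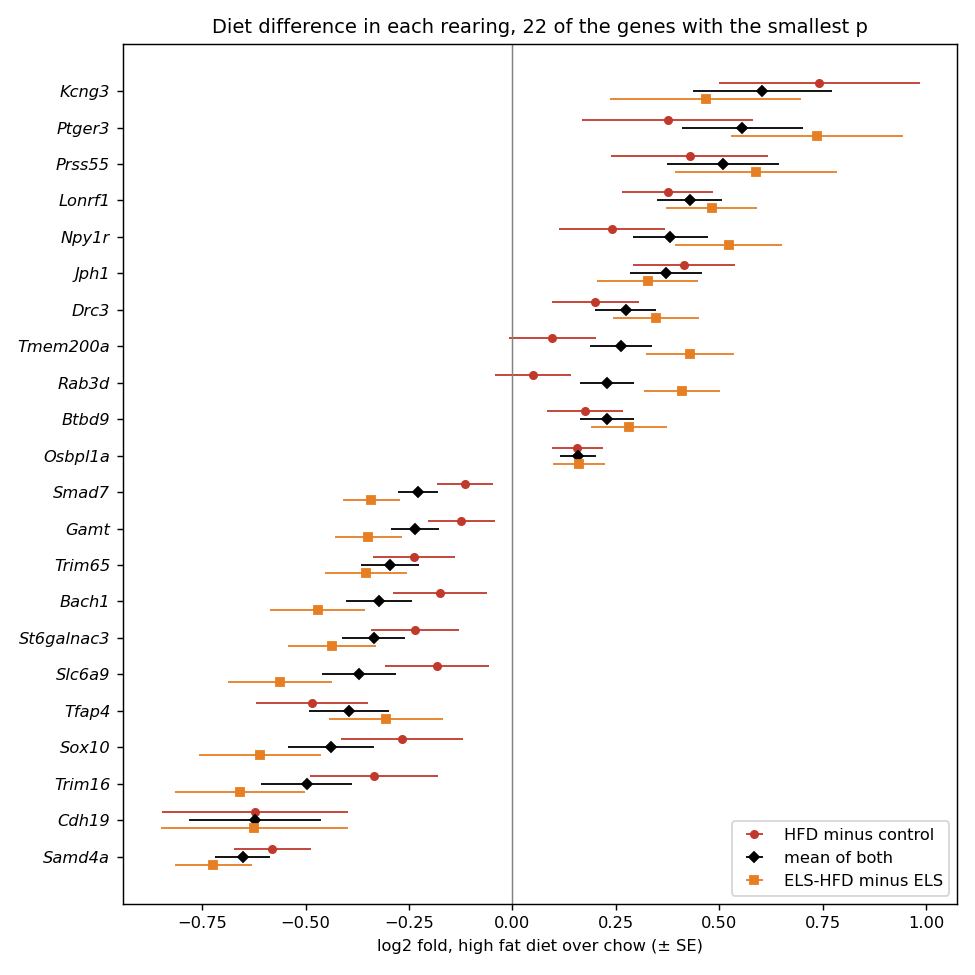
Log2 fold of high fat diet over chow ± SE on the horizontal axis for 22 of the genes with the smallest p, as HFD minus control (circles), the mean of both rearings (diamonds) and ELS-HFD minus ELS (squares), with Chat left off for scale. Every one of the 22 lies on the same side of 0 in both rearings, and only Samd4a passed the threshold.

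Genes whose libraries do not overlap were counted apart from the test. The 8 high-fat libraries lay wholly above the 8 chow libraries for 1 gene (0.00704%), LOC103694863, and wholly below them for 6 (0.0422%). The 6 were Samd4a, Trim65, Gamt, St6galnac3, AABR07033564.1 and Acot13, a thioesterase that splits fatty acyl-CoA, at -0.16. These were named after their values were seen, and of them only Samd4a passed. When each rearing was taken by itself, 1 gene (0.00704%) was apart and higher in both and 10 (0.0704%) were apart and lower in both, which adds Adamts4, Kifc3, Mob3a and LOC102556092. Within 1 rearing, HFD lay wholly above control for 92 genes (0.648%) and wholly below for 163 (1.15%), and ELS-HFD lay wholly above ELS for 172 (1.21%) and wholly below for 188 (1.32%). Opposite directions were seen for 2 genes (0.0141%), AABR07049064.1 and Tango6.

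The 2 rearings gave unequal numbers of small p-values. HFD against control had 0 genes called by edgeR (262 at an unadjusted p under 0.05, 1.84%, of which 0.753% higher and 1.09% lower). DESeq2 called 1 (0.00704%, with 1.56% at an unadjusted p under 0.05) and limma voom 1. ELS-HFD against ELS had 1 called by edgeR (0.00704%), Samd4a at an adjusted p = 0.0153, with 882 at an unadjusted p under 0.05 (6.21%, of which 2.41% higher and 3.8% lower). DESeq2 called 5 there (0.0352%, with 6.17% at an unadjusted p under 0.05), among them Samd4a, Smad7, Chat and Ngfr. In separated rats the edgeR call of Samd4a ended when any one of ELS 1, ELS 2, ELS 3, ELS-HFD 1, ELS-HFD 2 or ELS-HFD 4 was left out, at adjusted p-values of 0.0547 to 0.112, and the log2 fold over both rearings passed in each of those fits.

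The difference between the rearings was itself tested for every gene. It was called for 0 genes in edgeR (317 at an unadjusted p under 0.05, 2.23%, of which 1.28% positive and 0.95% negative). DESeq2 and limma voom also called 0, with 297 (2.09%) and 420 at an unadjusted p under 0.05. Among named genes with the smallest p, the heat shock factor gene Hsf2 differed by 0.37 between rearings, with a diet difference of -0.10 in undisturbed and 0.27 in separated rats. Fn3k, an enzyme that removes sugar from glycated proteins, differed by 0.40 and the exchange factor gene Plekhg6 by 1.16. Relb, a subunit of NF-kappa B, differed by -0.78, with 3.49 and 3.18 CPM in HFD and control libraries and 2.89 and 4.52 CPM in ELS-HFD and ELS libraries (means). Tango6 and the nucleolar gene Nol12 each differed by -0.43. All 6 had an edgeR adjusted p = 1.00. Smad7 differed by -0.23 between rearings and did not pass (edgeR adjusted p = 1.00).

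Lists of lipid and sterol handling genes had medians near 0. Of 23 cholesterol biosynthesis genes none was called, and 16 were positive, against 6653 of 14208 over all genes. The median log2 fold was 0.02, and it was -0.004 without ELS 3. An unadjusted p under 0.05 was reached by 2 of the 23, on the positive side, against 1.97% of all genes there. The sterol reductase Tm7sf2 had 15.4 and 13.8 CPM in HFD and control libraries and 15.9 and 13.4 CPM in ELS-HFD and ELS libraries (means), at 0.21 ± 0.07. Stard4, a carrier of cholesterol between membranes, was at 0.18 ± 0.08, with 0.33 in undisturbed and 0.03 in separated rats. Of 17 genes of the sterol-sensing LXR receptors and sterol efflux, 12 were negative with a median of -0.04. Among them were the exporter Abcg1 at -0.14 ± 0.05 and the phospholipid-remodelling enzyme Lpcat3 at -0.11 ± 0.05. On the negative side 3 of the 17 had an unadjusted p under 0.05, against 3.57% of all genes, and 0 did without ELS 4. For 20 genes of fatty acid synthesis and 36 of fatty acid oxidation the medians were both -0.02. The elongase Elovl1, which is also a gene of myelinating cells, was at -0.46 ± 0.20, and the brain fatty acid binding protein Fabp7 at -0.19 ± 0.09. Genes of the respiratory chain stayed close to 0, with 70 nuclear genes between -0.10 and 0.06 (median -0.01) and 12 mitochondrially encoded genes between -0.08 and 0.05 (median -0.04).

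Of 29 genes of glucose transport and glycolysis, 15 were negative (median -0.01). Slc16a1, a transporter of lactate and ketone bodies, ranged from 34.1 to 41.2 CPM (median 38.9) in the high-fat libraries and from 38.8 to 52.0 CPM (median 44.9) in the chow libraries, with a log2 fold of -0.21 ± 0.07 that did not pass (edgeR adjusted p = 0.824). Of 22 hypoxia targets and angiogenic factors, 18 were negative with a median of -0.09, and 20 of 22 were negative in undisturbed rats (median -0.10). The level of the list ran from -0.08 to -0.03 in HFD and from -0.00275 to 0.14 in control libraries, without overlap, and from -0.04 to 0.01 in ELS-HFD and from -0.20 to 0.16 in ELS libraries, with overlap. The vascular growth factor gene Vegfa was at -0.16 ± 0.05, with -0.26 in undisturbed and -0.06 in separated rats. Of 30 sphingolipid genes, 22 were negative and 4 had an unadjusted p under 0.05 on that side (3.57% of all genes), the sphingosine-1-phosphate receptors S1pr3 at -0.28 ± 0.09 and S1pr5 at -0.59 ± 0.19, Ugt8 and Sgpp1. S1pr5 and Ugt8 are genes of oligodendrocytes, and their values stand beside the lower myelin list described further on.

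Among hormone and appetite genes, 37 of insulin, insulin-like growth factor and leptin signalling had a median of 0.01 with none called. The growth factor binding protein gene Igfbp4 was at 0.19 ± 0.07. Of 33 appetite peptides and receptors, 12 were positive and 21 negative (median -0.06). An unadjusted p under 0.05 was reached by 3 of the 33, against 5.54% of all genes. These were Npy1r, the calcitonin receptor Calcr and Cartpt, which encodes the feeding-related peptide CART. Calcr ranged from 0.893 to 8.11 CPM in high-fat and from 3.92 to 15.1 CPM in chow libraries, at -0.92 ± 0.33. Cartpt was at 0.65 ± 0.27, with 0.06 in undisturbed and 1.25 in separated rats. For 17 opioid and dopamine genes of reward, 15 were negative with a median of -0.28, which was -0.15 without ELS 3. The median was -0.06 in undisturbed and -0.29 in separated rats. The dynorphin gene Pdyn was at -0.67 ± 0.33, with 0.04 in undisturbed and -1.39 in separated rats, and it is also a striatal and central amygdala gene.

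Lists of cell state gave no call. Immediate early genes, 25 in all, had a median of 0.00, with 0.10 in undisturbed and -0.13 in separated rats, and the phosphatase gene Dusp6 was at 0.14 ± 0.06. Glucocorticoid targets (22 genes) had a median of 0.04, which was 0.21 without ELS 3 and ELS 4, with Zbtb16 at 0.38 ± 0.21. The 19 clock genes were at 0.01, with Rora at -0.34 ± 0.16. Of 34 interferon and MHC genes 29 were negative (median -0.14), among them the immunoproteasome gene Psmb8 at -0.98 ± 0.30 and the regulator Irf1 at -0.22 ± 0.09. That median was 0.02 without ELS 3 and ELS 4, with 16 of 34 negative, and genes of the MHC share sequence with near copies. The 19 inflammatory genes had a median of -0.06 and the 30 of the heat shock and unfolded protein response one of -0.03, with the small heat shock gene Cryab at -0.39 ± 0.19. The 18 stress neuropeptides and receptors were at -0.11, with vasopressin (Avp) at -1.24 ± 0.59 and the vasoactive intestinal peptide gene Vip at 0.30 ± 0.14. Avp was low, from 0.204 to 3.53 CPM in the high-fat libraries and from 0.247 to 7.06 CPM in the chow libraries. On the negative side 0 of the 18, and so not Avp, had an unadjusted p under 0.05.

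No ion channel or receptor gene of the lists was called. Of 49 potassium channel genes, 32 were positive with a median of 0.05, against 6653 of 14208 positive over all genes. An unadjusted p under 0.05 was reached by 4 of them, all positive, against 1.97% of all genes on that side. Besides Kcng3 these were the modifying subunit Kcns3 at 0.36 ± 0.12, the A-type channel Kcna4 at 0.25 ± 0.09 and the G-protein-gated channel Kcnj3 at 0.23 ± 0.10. Kcns3 was at 0.04 in undisturbed and 0.69 in separated rats. The potassium channel median was 0.02 without ELS 3 and ELS 4, and also without ELS 3 alone. Of 25 genes for junctophilins and calcium release 16 were positive (median 0.05), with Jph4 at 0.13 ± 0.08. The 16 GABA receptor subunits had a median of 0.04 (0.02 without control 4), with the synaptic subunit Gabra2 at 0.15 ± 0.05 and the metabotropic subunit Gabbr2 at 0.22 ± 0.09. The 22 glutamate receptor genes were at 0.02, and at -0.03 without ELS 3, with Grm3 at -0.23 ± 0.09 and Grin2a at 0.21 ± 0.11. Among 19 serotonin and adrenergic receptors, 10 positive and 9 negative with a median of 0.00, the alpha-2A receptor Adra2a was at 0.40 ± 0.16 and Htr4 at -0.36 ± 0.19.

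**Figure D3:**
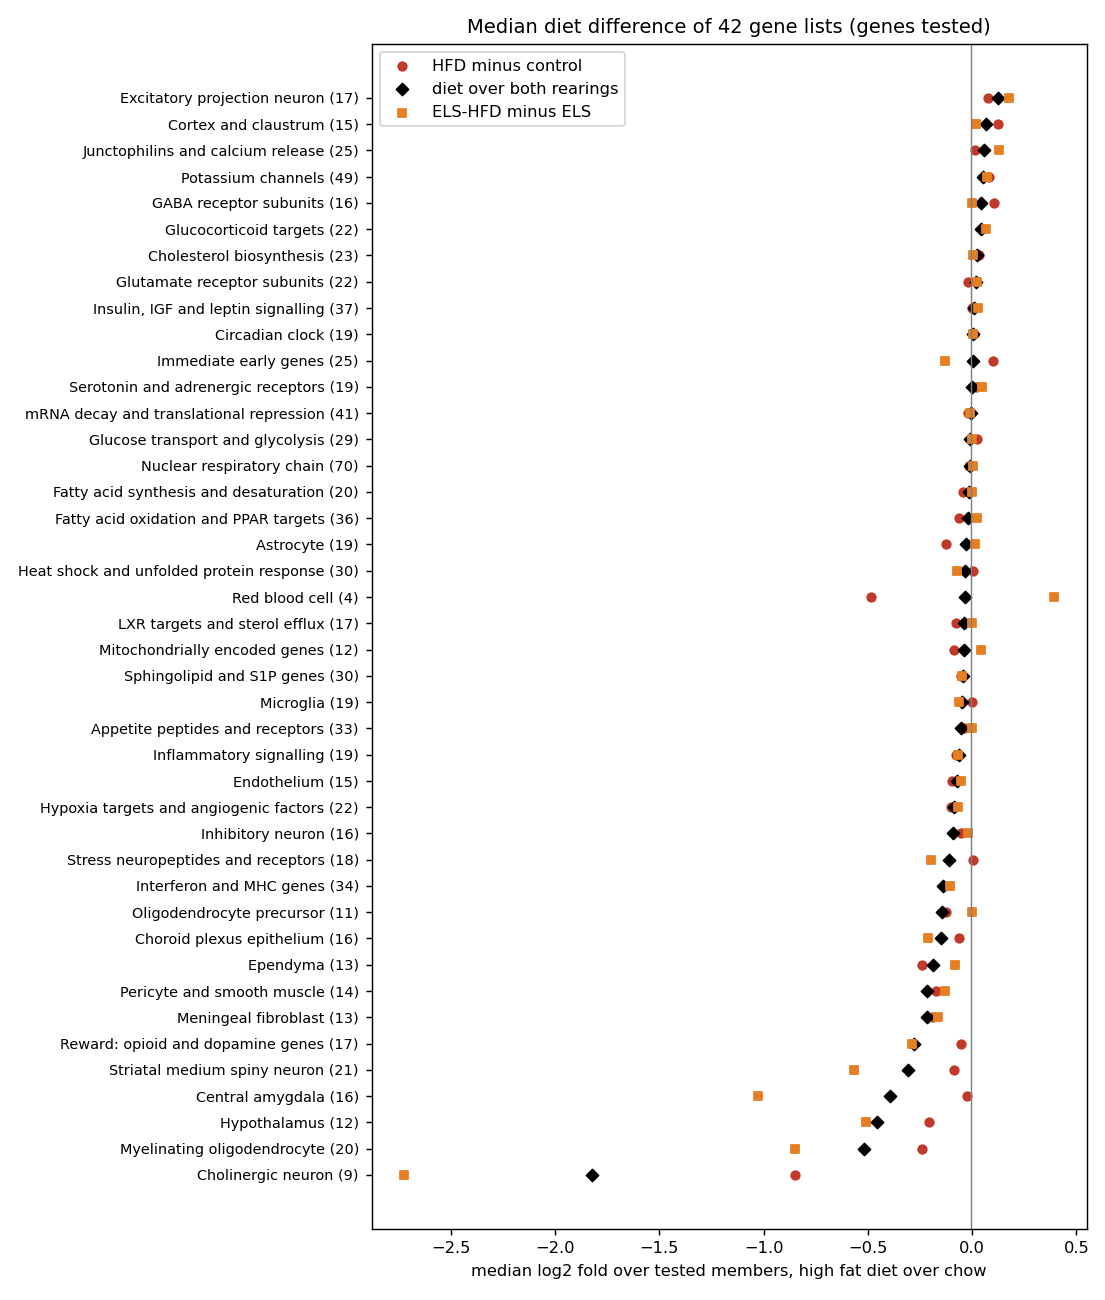
Median log2 fold of high fat diet over chow over the tested members of 42 gene lists (number tested in brackets), for HFD minus control (circles), both rearings (diamonds) and ELS-HFD minus ELS (squares), with a grey line at the all-gene median of -0.01. Most lists lie near the line, and the cholinergic, myelin, hypothalamus, central amygdala and striatal lists lie furthest below it, further in separated than in undisturbed rats.

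Markers of myelinating oligodendrocytes, the cells that wrap axons, had negative values throughout. All 20 tested genes were negative and all 20 had an unadjusted p under 0.05, against 3.57% of all genes on that side, with a median of -0.52, and none was called. Mbp, which encodes myelin basic protein, had 2899 and 3473 CPM in HFD and control libraries and 2519 and 4804 CPM in ELS-HFD and ELS libraries (means), at -0.60 ± 0.21. Hapln2, a protein of the nodal matrix, was at -0.64 ± 0.19. The median was -0.24 in undisturbed and -0.85 in separated rats. The level of the list, as mean log2 CPM relative to all libraries, ran from -0.28 to 0.02 in HFD and from -0.04 to 0.25 in control libraries. These overlapped through HFD 1. The list level ran from -0.77 to 0.28 in ELS-HFD and from -0.18 to 1.02 in ELS libraries. Among the latter, ELS 3 and ELS 4 stood at 1.02 and 0.87 and ELS 1 and ELS 2 at -0.06 and -0.18. Without ELS 3 and ELS 4 all 20 were still negative, the median was -0.20 and 1 had an unadjusted p under 0.05. Oligodendrocyte precursor genes were at -0.15 (10 of 11 negative), and at -0.03 without control 4. In separated rats 5 of the 11 were negative with a median of 0.00, against -0.12 in undisturbed rats. Among them was Enpp6 of newly forming oligodendrocytes at -0.71 ± 0.27.

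Cholinergic neuron genes had the lowest median of the 42 lists. Chat, the enzyme that makes acetylcholine, had 0.604, 0.799, 0.460 and 0.748 CPM in HFD, against 0.627, 2.23, 2.95 and 0.164 CPM in control libraries. It had 0.481, 0.135, 0.301 and 0.908 CPM in ELS-HFD, against 1.72, 0.909, 16.8 and 6.07 CPM in ELS libraries. The high ELS mean came from ELS 3 and ELS 4, and the undisturbed groups overlapped. The log2 fold of Chat was -2.48 ± 0.63 and was -1.34 without ELS 3 and ELS 4. All 9 tested cholinergic genes were negative with a median of -1.82, which was -0.66 without these 2 libraries, and Slc18a3, the vesicular transporter of acetylcholine, was at -1.82 ± 0.52. Large cholinergic neurons are typical of the basal forebrain and striatum beside the amygdala, and the list level was 2.72 in ELS 3 and 1.71 in ELS 4 against at most 1.02 in any other library. The part of such regional content in the lower myelin and cholinergic values was not tested.

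Region markers were highest in other libraries from list to list. The striatal list was highest in ELS 3 (1.09) and next in ELS-HFD 4 (0.64), and the hypothalamus list in control 3 (0.83) and control 2 (0.77). All 21 striatal medium spiny neuron genes were negative (median -0.31, or -0.08 with 14 of 21 negative without ELS 3 and ELS 4), with 1 at an unadjusted p under 0.05, the forkhead gene Foxp2 at -0.62 ± 0.24. All 16 central amygdala genes were negative with a median of -0.39, at -0.03 in undisturbed (10 of 16 negative) and -1.03 in separated rats (16 of 16). An unadjusted p under 0.05 was reached by 2 of the 16, against 3.57% of all genes on the negative side. With 1 library left out, the median over both rearings ran from -0.65 without ELS-HFD 4 to -0.31 without ELS-HFD 1. Isl1, a transcription factor of the central amygdala and of cholinergic neurons, was at -1.62 ± 0.51, and the orphan receptor Gpr101 at -0.69 ± 0.27. The level of Isl1 was low, from 0.135 to 3.45 CPM in the high-fat libraries and from 0.164 to 7.07 CPM in the chow libraries. It was highest in ELS 3. The central amygdala list level ran from -1.29 to 0.18 in ELS-HFD and from 0.25 to 0.80 in ELS libraries, without overlap, and from -0.08 to 0.27 in HFD and from -1.03 to 0.68 in control libraries. Hypothalamus genes were negative in 11 of 12 (median -0.46), with Nkx2-1 at -0.59 ± 0.23 and Cartpt as the exception. Inhibitory neuron genes had a median of -0.09, with the vesicular GABA transporter Slc32a1 at -0.35 ± 0.14 and Gad2 at -0.32 ± 0.14. Excitatory projection neuron genes were positive in 16 of 17 (median 0.12), against 6653 of 14208 over all genes. Of the 17, 4 were negative in undisturbed and 5 in separated rats, and the median over both was 0.06 without ELS 3. The glutamate transporter Slc17a7 was at 0.25 ± 0.11 and Emx1 at 0.28 ± 0.12. For 15 cortex and claustrum genes the median was 0.07.

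Glia and vessels other than myelin showed smaller values. Astrocyte genes had a median of -0.03 (S100b -0.08 ± 0.06, Slc4a4 -0.12 ± 0.10) and microglia genes one of -0.05 (Trem2 -0.11 ± 0.10). Endothelial genes were at -0.08, with the junction gene Cdh5 at -0.17 ± 0.09. Pericyte and smooth muscle genes were at -0.22, with 3 of 14 at an unadjusted p under 0.05 on the negative side, against 3.57% of all genes, and 1 of 14 without ELS 4. Vitronectin (Vtn) was at -0.31 ± 0.11 and the smooth muscle gene Tagln at -0.58 ± 0.22. Choroid plexus genes were at -0.15 with a median SE of 0.792, and at 2.10 without ELS 3 and ELS 4, so their direction was set by which libraries were kept. Ependyma, whose lining cells bear motile cilia, was at -0.19 and 0.64 in the same pair of fits, and meningeal fibroblast genes were at -0.22 and 0.24. The 4 red blood cell genes had a median of -0.04 over both rearings and opposite signs in them, with all 4 negative in undisturbed rats (median -0.48) and 0 negative in separated rats (median 0.39), and with Hbb at -0.13 ± 0.29 over both.

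**Figure D4:**
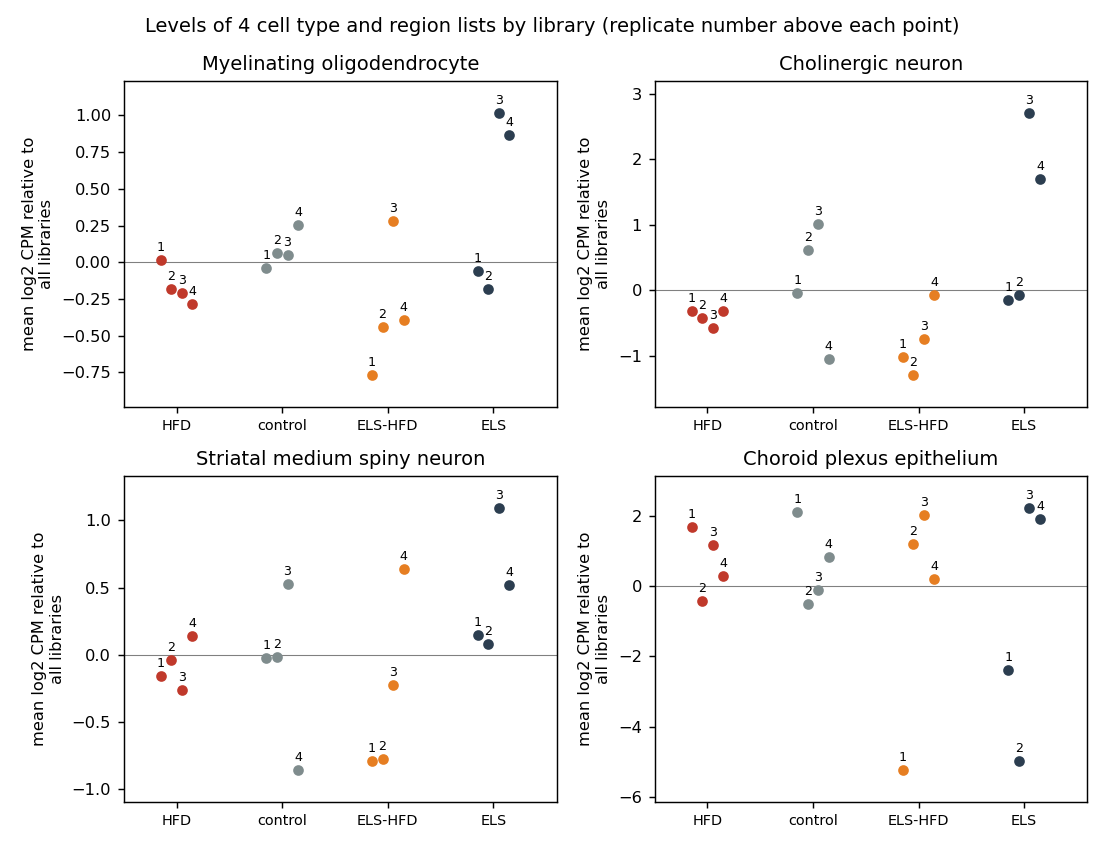
Mean log2 CPM of the tested members of 4 marker lists in each library relative to the mean of all libraries, with the replicate number above each point. ELS 3 and ELS 4 are the highest libraries for myelin (1.02 and 0.87) and cholinergic genes (2.72 and 1.71), and ELS-HFD 1, ELS 2 and ELS 1 are the lowest for choroid plexus genes (-5.24, -4.97 and -2.39).

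Which libraries entered changed the number of calls more than any other setting did. Without ELS 1, ELS 2 and ELS-HFD 1, the libraries poor in choroid plexus transcripts, edgeR called 102 of 14434 genes tested. Of these, 13 were higher and 89 lower on the high fat diet. The 102 held 17 myelin genes, such as Cldn11 at -0.77 and Mog at -0.68, 5 cholinergic genes, such as Ngfr at -2.45, and Samd4a at -0.66 and Lonrf1 at 0.47. That fit leaves ELS 3 and ELS 4, the libraries highest in myelin, as the whole ELS group. When ELS 3 and ELS 4 were left out instead, 25 of the 102 had an unadjusted p under 0.05, against 692 of all 14411 genes tested. In that fit, which shares most of its libraries with the other, 100 of the 102 kept their sign. Of the 102 genes 1, Samd4a, passed with all 16 libraries. With all libraries and with ELS 3 and ELS 4 left out, edgeR called Samd4a alone.

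**Figure D5:**
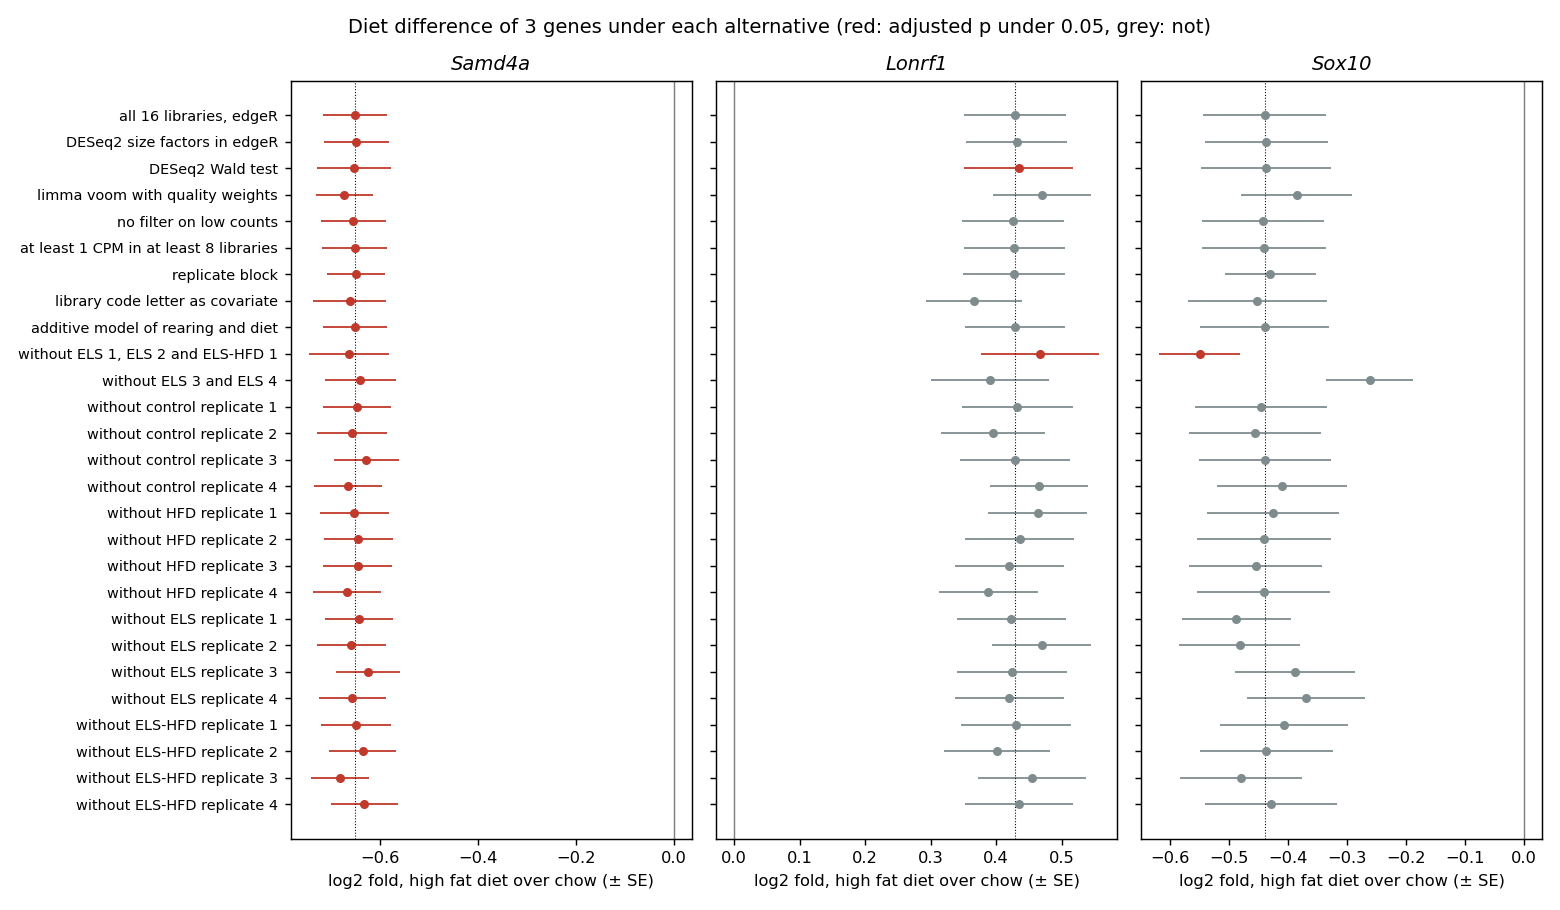
Log2 fold of high fat diet over chow ± SE for Samd4a, Lonrf1 and Sox10 under each alternative (rows), red where the adjusted p was under 0.05 and grey where it was not. Samd4a is red in every row at -0.68 to -0.62, Lonrf1 in 2 rows, and Sox10 in the row without ELS 1, ELS 2 and ELS-HFD 1 alone, moving to -0.26 without ELS 3 and ELS 4.

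The authors' deposited table compares the groups in pairs and gives no value over both rearings. In the authors' deposited table Samd4a had a log2 fold of -0.579 for HFD against control (adjusted p = 0.00112, with DESeq2 listed among the submitters' tools). For ELS-HFD against ELS its log2 fold there was -0.728 (adjusted p = 4.27e-07). For Lonrf1 the authors' deposited table gave log2 folds of 0.384 and 0.485 in these comparisons (adjusted p = 1.00 and 0.0706). An adjusted p of at most 0.05 was held there by 1 gene for HFD against control and by 5 for ELS-HFD against ELS. In its columns with re-estimated p-values, the authors' deposited table held 3 genes (Samd4a, S1pr3 and Vegfa) and 40 genes at that threshold.

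Precision differed with level. The median SE of the log2 fold was 0.286 for the 780 genes under 1 CPM, 0.155 for 3898 genes from 1 to 10 CPM, 0.0696 for 7475 genes from 10 to 100 CPM and 0.0614 for 2055 genes above 100 CPM. Samd4a, at 13.1 CPM, lies in the range where a typical gene has an SE near its own of 0.07. Chat, at a mean of 2.25 CPM, had an SE of 0.63, well above the median of 0.155 for genes from 1 to 10 CPM. Its ELS libraries ranged from 0.909 to 16.8 CPM. The median SE of the 9 tested cholinergic genes was 0.517.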

How the data were processed

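RNA of 16 brain samples was made into libraries from 15 ng of RNA by barcoded oligo-dT reverse transcription, pooling and linear amplification (source: the labels' protocols). Tools listed in the submitters' processing notes, with no version or role, are STAR, HTSeq, cutadapt, Picard and DESeq2, and the build is Rnor_6.0. Strandedness and molecular identifiers are not stated, so antisense partners cannot be told apart. The authors deposited raw counts for 15580 genes, a normalized signal equal to each count divided by 1 factor per library, and log2 folds with p-values, per the file headers. The deposited signal was used for a check only, and the deposited folds only where their table is named.

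Counts were tested with edgeR 4.0.16 in R 4.3.3 (TMM, factors 0.952 to 1.029). Genes passed filterByExpr with a minimum count of 10 and total of 15, which left 14208. All libraries entered 1 model of 4 group means with 4 contrasts, adjusted by Benjamini-Hochberg at 0.05. SEs were derived from the log2 fold and its F statistic. The procedure was tested on simulated data. DESeq2 1.42.0 and limma 3.58.1 were alternatives. List levels are means of log2 CPM (prior count 2) minus the gene's mean.

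Genes and lists were chosen with earlier results of these data known. Named are the 12 genes per direction with the smallest p and at least 1 CPM, every called gene, 2 members per list, 3 genes per direction for the difference between rearings, Ttr and Mbp. Others are named as further members of a list. Of 968 list genes, 883 were tested. Promoter windows came from RefSeq on GRCr8. A few genes that this rule names are not reported here.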

Additional observations from a re-analysis of the deposited data

Results flagged for a closer look

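Within groups of 4 libraries, a single library stood far from the other 3 (Dixon's ratio above its 95% critical value) in 3 of 128 group values of genes and 7 of 168 group values of lists. Chance gives about 1 in 20 (5%). For Trim16, ELS-HFD 1 had 2.47 CPM while the nearest library of its group had 3.46 CPM. For Tfap4, ELS 4 had 5.13 CPM with the nearest at 6.19 CPM, and for Nol12, ELS 2 had 8.10 CPM with the nearest at 9.83 CPM. Leaving out ELS-HFD 1 gave Trim16 a log2 fold of -0.44.

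Among list levels, on the log2 scale relative to all libraries, ELS 3 was apart at -0.03 for glucose transport and glycolysis (nearest 0.02), at -0.14 for junctophilins and calcium release (nearest 0.00) and at 0.31 for microglia (nearest 0.00). Control 4 was apart at 0.35 for glucocorticoid targets (nearest -0.04) and control 3 at -0.30 for red blood cell genes (nearest 0.40). HFD 1 was apart at -0.11 for glutamate receptor subunits (nearest 0.06), and HFD 4 at -0.09 for inhibitory neuron genes (nearest 0.04).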

How the results depend on the processing

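Samd4a passed in all 10 alternatives and all 16 fits that left out 1 library. The number called over both rearings was 2 with DESeq2 and 102 without ELS 1, ELS 2 and ELS-HFD 1, and stayed at 1 otherwise. With the code letter as a covariate, 476 of 14208 genes had an unadjusted p under 0.05, against 787 in the main fit. That number ran from 564 to 1104 with 1 library left out. Lonrf1 had an edgeR adjusted p = 0.927 with the code letter as a covariate. HFD against control gave 1 with DESeq2 and 1 with voom. ELS-HFD against ELS gave 5 with DESeq2, 116 without ELS 1, ELS 2 and ELS-HFD 1, 0 without ELS 3 and ELS 4, and 0 to 1 with 1 library left out. The difference between rearings gave 0 throughout.

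Named genes that reversed were, without ELS 3 and ELS 4, Col1a1 (0.11), Slc13a3 (0.14), F5 (2.18), Prlr (1.10), Hydin (0.35) and Ttr (2.10). With voom F5 (0.58) and Ttr (0.26) reversed, with the code letter as a covariate Prlr (0.22) and Ttr (0.27), and without the 3 choroid-poor libraries Hba-a3 (-0.0905). With 1 library left out, Hba-a3 ranged from -0.00864 to 0.23, Hbb from -0.34 to 0.00951, Prlr from -0.48 to 0.12 and Ttr from -0.56 to 0.27. The cause was not tested.

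With the replicate number as a block, the count was 1 (Samd4a, edgeR adjusted p = 0.00145) and Ttr reversed to 0.0734. Samples with the same number deviated together (correlation over 0.1) in 4 of 8 pairs, so the numbers were not taken as pairs. Depth and 4 libraries per group limit what can be seen, chiefly for genes under 1 CPM.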
